A study of Homo sapiens with 3 samples.

Results

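The comparison set SK-N-BE(2) cells given arsenic trioxide (ATO) at 2 µM for 12 h against control cells, with 1 RNA sequencing library on each side. SK-N-BE(2) is an established human neuroblastoma line with amplified MYCN. The study, which names ATO as an agent against the DNA binding of N-Myc, holds 3 libraries, and the remaining one, from cells given 4 µM, enters here only through the expression filter and as values set beside those of 2 µM. The control column is also labelled 12 h, and what the control cells received is not given in the sources used here. Of 34520 rows in the table, 12433 had a 3-library mean of 1 FPKM or more and were considered, and 11106 of these were genes with a symbol. FPKM is the number of fragments per kilobase of transcript, scaled to library size. The lowest mean inside this filter was 1.0002 FPKM and the highest outside it 0.999506 FPKM.

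Differences are log2 ratios of FPKM + 1, ATO 2 µM over control, a scale that understates the change of genes with low values. A row was called higher or lower by a size rule, an absolute log2 of at least 1, and a finer rule of 0.5 was used to describe lists. With 1 library per group nothing here is tested against replicate spread, so the text holds no p-value and no error, and "rose", "fell", "higher" and "lower" mean only that a row passed the size rule between these libraries. In bulk RNA, fewer cells of a kind and less RNA per cell cannot be told apart. Both doses share the control library, so their differences are not independent, and values at 4 µM are given only side by side.

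Trivalent arsenic binds closely spaced cysteine thiols of proteins. Several stress sensors carry such thiols. KEAP1 normally leads the transcription factor NRF2 to degradation by the proteasome, and once modified it spares NRF2, which binds antioxidant response elements in genes of glutathione, thioredoxin, heme and iron handling. Zinc displaced from proteins activates MTF1, which binds metal response elements of metallothionein genes, while unfolded proteins release HSF1 onto heat shock elements, and kinases that phosphorylate eIF2 alpha favour translation of ATF4, which acts at CEBP-ATF elements of amino acid genes. In neuroblastoma, N-Myc acts beside an adrenergic circuit of transcription factors that keeps the sympathetic identity of the cells.

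The 2 µM library differed from the control by the size rule in a small set of genes. Of the 12433 considered rows 144 were higher (1.16%) and 112 were lower (0.901%), 256 or 2.06% in all, and with the finer rule 811 were higher (6.52%) and 751 lower (6.04%), 1562 or 12.6% in all. Of the rows past the size rule 56.2% were higher, a share that moved with the scale and was 49.6% with upper-quartile scaling. After TPM scaling, which lifts more low rows over the filter, 367 were higher and 552 lower (39.9% higher). Of the 144 higher rows 45 were under 1 FPKM in the control. These 45 passed the filter only through values with ATO, and their number is no support. Of the 112 lower rows 24 were under 1 FPKM at 2 µM. These 24 passed the filter only through values in the other libraries, and their number is no support either. Counts in the lists below are read beside 1.16% higher and 0.901% lower over all rows, of which 51.6% had a log2 above 0. Among genes with a symbol 106 were higher and 74 lower, 27 and 16 of them past a log2 of 1.5, 8 and 2 past 2, and 4 and 0 past 3. The median log2 of all considered rows was 0.01, the central 50% lay between -0.19 and 0.20, and the central 95% between -0.74 and 0.75. The higher genes with a symbol had a median of 15.9 FPKM at 2 µM against 5.74 FPKM in the control, and the lower ones a median of 4.03 FPKM at 2 µM against 12.4 FPKM in the control. Rows past the rule were a larger share among abundant genes, 6.44% at a mean of 100 FPKM or more against 1.29% between 1 and 3 FPKM.

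**Figure D1:**
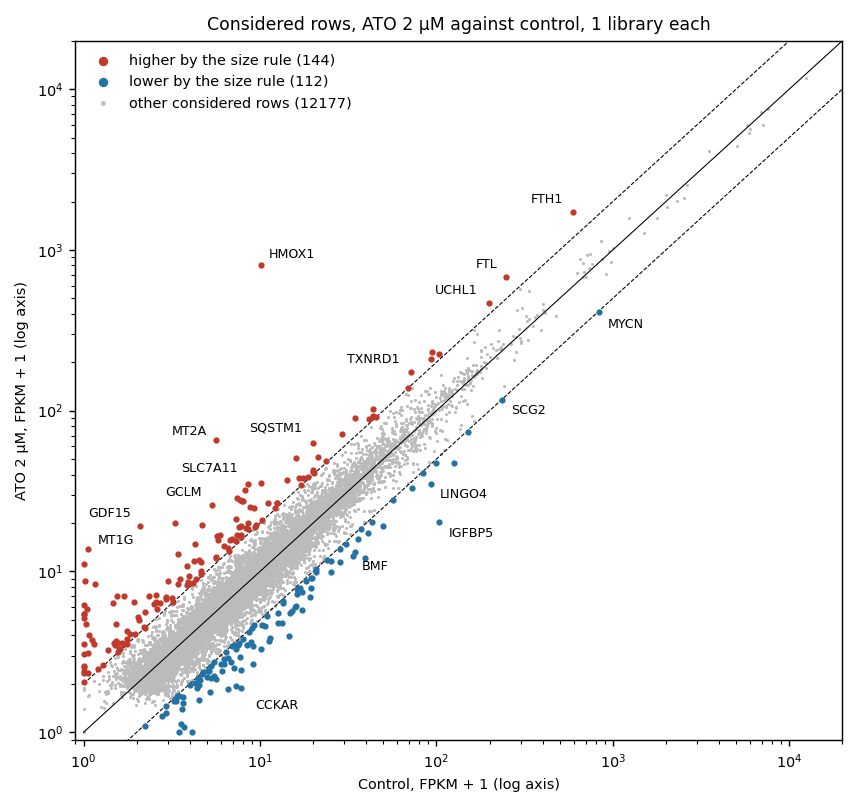
Each point is 1 considered row, with ATO 2 µM on the vertical axis and control on the horizontal axis, both as FPKM + 1 on log axes; the solid line marks equal values and the dashed lines the size rule. Most rows lie between the dashed lines, 144 lie above and 112 below, and HMOX1 stands farthest from the line of equal values, at 808 FPKM at 2 µM and 9.17 FPKM in the control.

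The libraries seemed alike in depth, at 1.03 times the control for 2 µM and 0.991 times for 4 µM, from the commonest ratio of low values. That ratio was found in only 83 of 7343 and 87 of 7041 low rows. By the commonest low value, 1 FPKM of a 2 kb transcript would be 71 to 74 counted units. Only 21.8% to 23.6% of low values were whole multiples of that unit, so its size is uncertain. FPKM summed to 262632 at 2 µM and 256459 in the control. All 10 neuroblastoma identity markers, such as HAND2, GATA3, ISL1, TH, DBH and MYCN, were considered. Their median log2 was -0.45, and 9 of 10 were below 0, while 51.6% of all rows were above 0. By the size rule 1 (MYCN) was lower and by the finer rule 5, beside 0.901% and 6.04% of all rows. By the finer rule 1 was higher, beside 6.52% of all rows. The 10 markers summed to 642 FPKM at 2 µM and 1123 FPKM in the control. MYCN alone held 412 and 832 FPKM of these sums, so they mostly follow that gene. Among 8 leukocyte genes, 7 lay under the filter, with sums over the 8 of 5.34 FPKM at 2 µM and 1.15 FPKM in the control. The 7 epithelial markers found summed to 4.05 FPKM at 2 µM and 3.99 FPKM in the control with CDH1 at 0 in both, the 7 endothelial markers to 3.86 and 5.50 FPKM, and the 6 Schwann and glial markers, none of which was at 0 in both, to 2.30 and 2.10 FPKM. At 2 µM, log2 values were lower for genes with longer transcripts. The median was 0.11 for genes whose longest GENCODE 29 transcript was up to 2.14 kb and -0.12 for those from 5.95 kb, against -0.22 and -0.05 for the same groups at 4 µM. The part of this trend in the results below was not tested, and values centred by length are given where they change a call.

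The largest differences were in genes that handle heme, iron and metals. HMOX1 encodes heme oxygenase 1, which breaks heme down to biliverdin, carbon monoxide and iron. It had 808 FPKM at 2 µM and 9.17 FPKM in the control (log2 6.31), the largest difference of any considered row. At 4 µM it had 1770 FPKM (log2 7.44). From this single gene came 0.308% of all FPKM at 2 µM, against 0.00357% in the control. The subunits of ferritin, the shell that stores iron, were also higher. FTH1 had 1723 FPKM at 2 µM and 590 FPKM in the control (log2 1.55), and FTL had 674 FPKM at 2 µM and 248 FPKM in the control (log2 1.44). Ferritin heavy chain has many near-identical processed pseudogenes, so reads of FTH1 may be split among them. BLVRB, a biliverdin reductase, had 5.30 FPKM at 2 µM and 1.52 FPKM in the control (log2 1.32), and ALAS1, the first enzyme of heme synthesis, 17.6 FPKM at 2 µM and 7.29 FPKM in the control (log2 1.17).

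In all, 5 of 19 considered heme and iron genes were higher and 0 lower, beside 1.16% and 0.901% of all rows. The list median log2 was 0.30, against 0.01 over all rows. TFRC, the transferrin receptor that brings iron into cells, lay on the other side, with 17.67 FPKM at 2 µM and 25.025 FPKM in the control (log2 -0.48). That difference did not pass the rule.

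**Figure D2:**
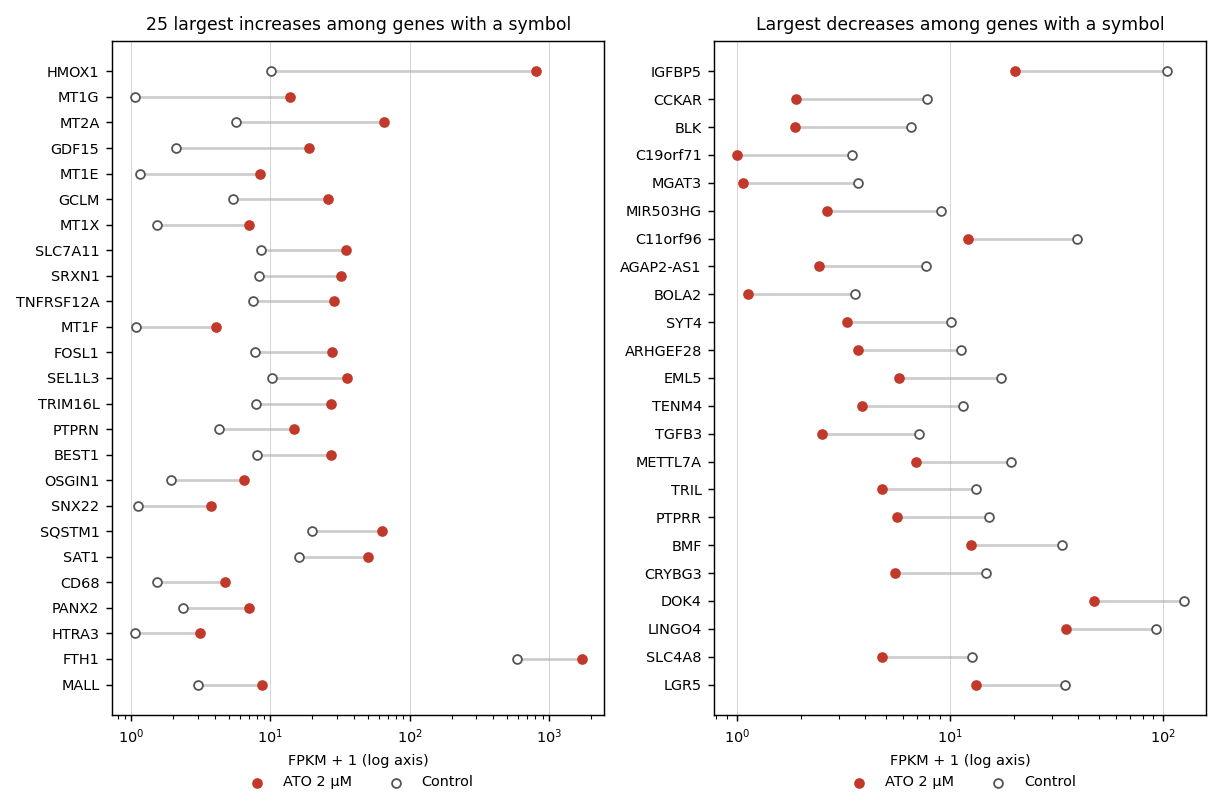
For the 25 genes with a symbol that had the largest increases (left) and for genes with the largest decreases (right), filled points give ATO 2 µM and open points the control, as FPKM + 1 on a log axis. HMOX1, MT1G, MT2A and GDF15 have the widest gaps on the left and IGFBP5 and CCKAR on the right, while FTH1 combines a narrow gap with the highest level.

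Metallothioneins are small cysteine-rich proteins that bind zinc, copper and toxic metals. MT2A, the most abundant one here, had 64.7 FPKM at 2 µM and 4.65 FPKM in the control (log2 3.54). MT1G had 12.8 FPKM at 2 µM and 0.0665 FPKM in the control (log2 3.69). MT1E had 7.38 FPKM at 2 µM and 0.155 FPKM in the control (log2 2.86). Every one of these was low without ATO. MT1X (log2 2.19) and MT1F (log2 1.91) also passed the rule, from 0.543 and 0.0760 FPKM in the control. MT1M, listed at 0 in the control, had 0.878 FPKM at 2 µM. Since MT1G, MT1E, MT1F, MT1X and MT1M were under 1 FPKM in the control, they entered only through their values with ATO, and their number is no support. The MT1 genes are near-identical copies, so their separate values are uncertain. SLC30A1, the zinc exporter of the plasma membrane and a target of MTF1, had 16.4 FPKM at 2 µM and 10.3 FPKM in the control (log2 0.62). MTF1 itself, the metal-responsive factor, had 2.82 FPKM at 2 µM and 2.94 FPKM in the control (log2 -0.04).

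The promoters below were chosen because they hold one of the elements named above and belong to genes that rose at 2 µM. Each is the 250 bases before the start of the gene from RefSeq (GRCh38.p14), written 5′ to 3′ on the strand of the gene, with the matches in capitals. In MT2A (chr16:56608334-56608583, plus strand) and MT1X (chr16:56682220-56682469, plus strand) the capitals are metal response elements, 7 and 4 of them.
MT2A: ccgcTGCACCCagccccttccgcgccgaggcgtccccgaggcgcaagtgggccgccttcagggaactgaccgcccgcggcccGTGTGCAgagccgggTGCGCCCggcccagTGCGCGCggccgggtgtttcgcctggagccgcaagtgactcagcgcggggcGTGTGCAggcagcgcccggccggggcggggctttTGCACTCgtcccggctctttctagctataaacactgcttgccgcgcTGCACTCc
MT1X: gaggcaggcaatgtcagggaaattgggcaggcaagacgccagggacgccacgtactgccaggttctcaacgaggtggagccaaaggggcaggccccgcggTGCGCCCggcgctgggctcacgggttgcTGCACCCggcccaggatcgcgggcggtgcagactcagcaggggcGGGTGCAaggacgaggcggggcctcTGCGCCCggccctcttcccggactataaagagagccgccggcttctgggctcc
In GCLM (chr1:93909431-93909680, minus strand) and TXNRD1 (chr12:104215529-104215778, plus strand) the capitals are an antioxidant response element.
GCLM: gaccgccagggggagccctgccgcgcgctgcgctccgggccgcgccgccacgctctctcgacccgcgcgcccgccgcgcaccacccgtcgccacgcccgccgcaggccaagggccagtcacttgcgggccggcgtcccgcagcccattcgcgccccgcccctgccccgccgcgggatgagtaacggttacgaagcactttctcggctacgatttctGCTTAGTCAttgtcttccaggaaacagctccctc
TXNRD1: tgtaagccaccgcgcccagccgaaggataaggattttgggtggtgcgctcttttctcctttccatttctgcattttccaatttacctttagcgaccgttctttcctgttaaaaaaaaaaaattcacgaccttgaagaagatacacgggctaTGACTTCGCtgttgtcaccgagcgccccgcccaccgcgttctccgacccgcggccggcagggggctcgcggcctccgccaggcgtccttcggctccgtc
In ASNS (chr7:97872409-97872658, minus strand) they are a CEBP-ATF element.
ASNS: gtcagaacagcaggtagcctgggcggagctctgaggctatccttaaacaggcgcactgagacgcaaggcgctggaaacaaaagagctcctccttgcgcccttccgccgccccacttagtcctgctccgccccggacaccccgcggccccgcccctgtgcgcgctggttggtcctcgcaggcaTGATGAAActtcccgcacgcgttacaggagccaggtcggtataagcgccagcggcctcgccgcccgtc
Other genes that rose had no match in the same window. These were SRXN1, SQSTM1, FTL, NQO1, NQO2, OSGIN1, PSMC1 and PSMD14 for the antioxidant response element, TRIB3 and GDF15 for the CEBP-ATF element, and HSPA1A, BAG3, DNAJB4 and HSPB8 for the heat shock element.

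The motifs searched were TGCACNC or TGCGCNC for the metal response element, TGACNNNGC for the antioxidant response element, TGATGNAA for the CEBP-ATF element and CACGTG for the E-box that N-Myc and MAX bind, on both strands. The heat shock element was searched as 3 triplets, GAA and TTC in alternation, with 2 free bases between them. Matches of different motifs may overlap on the sequence. A promoter was given for 9075 of the 11106 considered genes, 86 of the 106 higher and 49 of the 74 lower ones. An antioxidant response element was present in 23.3% of the higher promoters, 8.16% of the lower ones and 12.2% of all. The metal response element was in 39.5%, 18.4% and 33.8% of the same sets, and the CEBP-ATF element in 4.65%, 0% and 1.23%. E-boxes were in 3.49% of higher, 8.16% of lower and 9.25% of all promoters, while no higher or lower promoter held a heat shock element, a spelling found in 0.231% of all. These shares describe letters in a short window and say nothing about binding.

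Genes that make and use glutathione, the main small thiol of the cell, followed. GCLM, the modifier subunit of the enzyme that limits glutathione synthesis, had 25.1 FPKM at 2 µM and 4.37 FPKM in the control (log2 2.28). SLC7A11, the subunit that imports cystine, had 33.8 FPKM at 2 µM and 7.61 FPKM in the control (log2 2.01). GSR, which regenerates reduced glutathione, had 47.8 FPKM at 2 µM and 22.5 FPKM in the control (log2 1.05). These 3 act in supply and recycling, while the fourth gene past the rule, CHAC1 (log2 1.19), encodes an enzyme that degrades glutathione. With these, 4 of the 20 considered genes were higher, beside 1.16% of all rows. The other 16 did not pass, and the list median was 0.30. Conjugating enzymes were among those below the rule, with GSTP1, abundant at 246 FPKM at 2 µM and 188 FPKM in the control, at a log2 of 0.39.

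The thioredoxin, peroxiredoxin and quinone reductase list had 6 of 26 genes higher, beside 1.16% of all rows, 0 lower and 14 higher by the finer rule, beside 6.52%, with a median of 0.58. SRXN1, the sulfiredoxin that repairs overoxidized peroxiredoxins, had 30.9 FPKM at 2 µM and 7.21 FPKM in the control (log2 1.96). TXNRD1, the cytosolic thioredoxin reductase, had 172 FPKM at 2 µM and 70.5 FPKM in the control (log2 1.27). The quinone reductases NQO1 (log2 1.39) and NQO2 (log2 1.42) and the stress-induced gene OSGIN1 (log2 1.75) passed as well. OSGIN1, at 0.923 FPKM in the control, met the filter only through its values with ATO. PRDX1, a peroxiredoxin at 316 FPKM at 2 µM and 162 FPKM in the control, stopped just short (log2 0.96). Reductive power for these systems comes as NADPH. PGD, an enzyme of the pentose phosphate pathway, had 208 FPKM at 2 µM and 91.9 FPKM in the control (log2 1.17), and ME1, malic enzyme, 15.9 FPKM at 2 µM and 6.84 FPKM in the control (log2 1.11). Only these 2 of 15 NADPH genes passed the rule.

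Among NRF2 and its regulators 4 of 10 were higher by the finer rule and 0 lower, beside 6.52% and 6.04% of all rows, with a median of 0.33. SQSTM1, an autophagy receptor that also sequesters KEAP1, was the 1 of 10 NRF2 regulators past the rule, with 62.4 FPKM at 2 µM and 18.9 FPKM in the control (log2 1.67). The gene of NRF2, NFE2L2, had a log2 of -0.09, KEAP1 0.40 and BACH1, a repressor of the same elements, 0.21. The small MAF partners MAFG (0.78) and MAFF (0.73) lay between the rules, as did BACH2 (0.51). Genes of arsenic transport and methylation had 0 of 8 past the size rule, with 5 of 8 above 0 and a median of 0.10. By the finer rule 2 were higher, GSTO1 (0.63) and ABCC2 (0.58), and 0 lower, beside 6.52% and 6.04% of all rows. ABCC2, at 0.556 FPKM in the control, met the filter only through its values with ATO and gives that count no support. ABCC3 had 0.41, AS3MT, the arsenic methyltransferase, -0.25 and the efflux pump ABCC1 -0.03. PML, whose protein is the known target of ATO in promyelocytic leukemia, had 2.49 FPKM at 2 µM and 2.87 FPKM in the control, and 0 of 20 genes of PML bodies and the SUMO pathway passed even the finer rule (median 0.05).

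**Figure D3:**
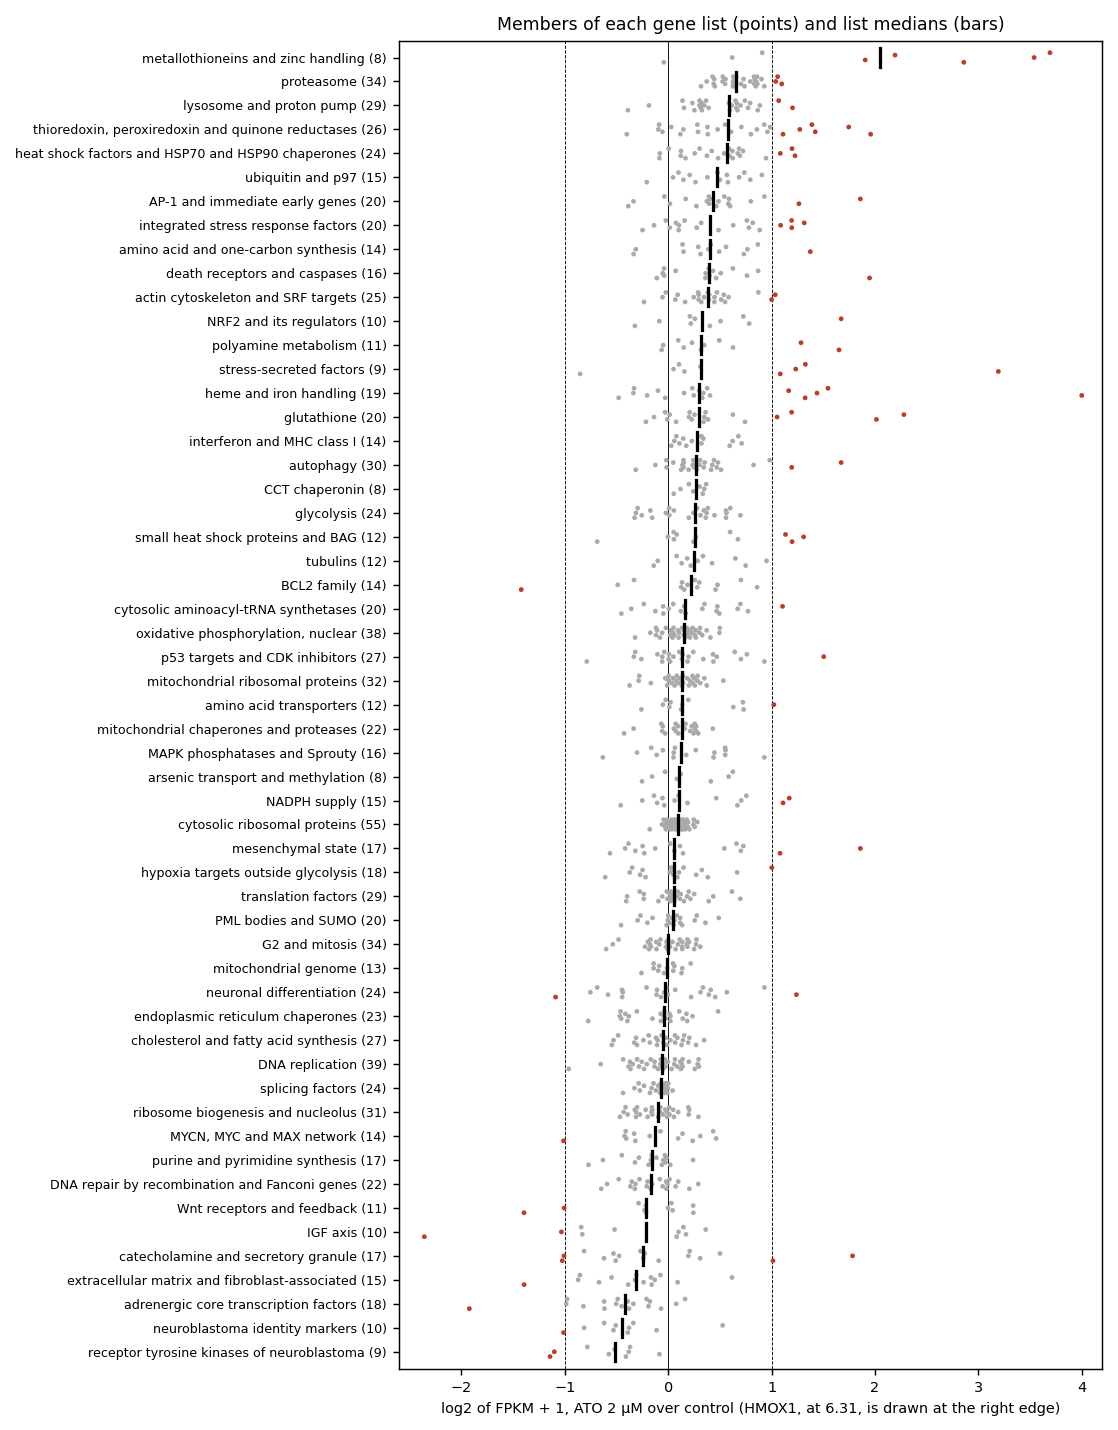
Points are the considered members of each gene list of at least 5 members, on the log2 scale of FPKM + 1, ATO 2 µM over control; red points pass the size rule (dashed lines), bars are list medians and the number of members is in brackets. Proteasome members form a narrow band, all above 0 around a median of 0.66, with 3 of 34 past the rule, whereas heme, iron and glutathione genes have medians of 0.30 with a few members far to the right.

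The genes that follow eIF2 alpha phosphorylation were higher in part. TRIB3, a pseudokinase that dampens ATF4, had 10.5 FPKM at 2 µM and 3.61 FPKM in the control (log2 1.32). PPP1R15A, which directs a phosphatase to eIF2 alpha and ends the response, had 25.6 FPKM at 2 µM and 11.5 FPKM in the control (log2 1.09). NUPR1 (log2 1.20), a small stress-induced nuclear protein, and CHAC1 completed the 4 of 20 response genes past the rule, beside 1.16% of all rows (median 0.40). NUPR1, at 0.573 FPKM in the control, met the filter only through its values with ATO and gives that count no support. DDIT3, which encodes CHOP, stayed below the rule with 11.7 FPKM at 2 µM and 6.22 FPKM in the control (log2 0.82). In the ATF4-regulated supply of amino acids, 1 gene per list passed. ASNS, asparagine synthetase, had 36.1 FPKM at 2 µM and 13.3 FPKM in the control (log2 1.37). Transfer RNA charging enzymes had WARS1 (log2 1.11) past the rule among 20, and transporters SLC3A2 (log2 1.02) among 12. SLC3A2 did not pass with upper-quartile scaling (0.98) or with centring by transcript length (0.95). The serine pathway enzymes PHGDH (0.73), PSAT1 (0.77) and SHMT2 (0.87) lay between the rules, and at 4 µM PHGDH had 1.33 and PSAT1 1.43.

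Secreted factors included one of the 4 genes past a log2 of 3. GDF15, a stress cytokine that reduces appetite, had 18.1 FPKM at 2 µM and 1.08 FPKM in the control (log2 3.19). At 4 µM it had 94.5 FPKM (log2 5.52). ADM2 (log2 1.33), a peptide hormone, CXCL8 (log2 1.23), the chemokine interleukin 8, and HBEGF (log2 1.08), a ligand of the EGF receptor, also passed the rule. That made 4 of 9 considered secreted factors higher, beside 1.16% of all rows. CXCL8, at 0.382 FPKM in the control, met the filter only through its values with ATO. STC1, a stanniocalcin, differed in sign at -0.85, with 3.44 FPKM at 2 µM and 7.02 FPKM in the control.

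Chaperones of the cytosol had 3 members past the rule and those of the endoplasmic reticulum none. HSPA1A, the inducible HSP70, had 101 FPKM at 2 µM and 42.6 FPKM in the control (log2 1.23), and its near-identical copy HSPA1B 92.0 FPKM at 2 µM and 42.9 FPKM in the control (log2 1.08), values that cannot be fully separated. DNAJB4, a J-domain partner of HSP70, had a log2 of 1.20. These 3 of 24 passed, beside 1.16% of all rows, 13 passed the finer rule, beside 6.52%, and the median was 0.56. HSP90AA1, the inducible HSP90 at 574 FPKM at 2 µM and 297 FPKM in the control, had 0.95. Of small heat shock proteins and BAG co-chaperones 3 of 12 passed, beside 1.16% of all rows. They were HSPB8 (log2 1.31), its partner in selective autophagy BAG3 (log2 1.20) and HSPB1 (log2 1.13), which had 226 FPKM at 2 µM and 102 FPKM in the control. The muscle-type member HSPB7 had -0.69. All 8 subunits of the CCT chaperonin, which folds actin and tubulin, lay between 0.05 and 0.37. In the endoplasmic reticulum 0 of 23 genes passed and the median was -0.04. HSPA5, the main chaperone there, had 108 FPKM at 2 µM and 149 FPKM in the control (log2 -0.45), PDIA4, a disulfide isomerase, -0.77, and XBP1 0.48.

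Proteasome genes lay in a narrow band above 0. The list had 28 of 34 subunits past the finer rule of 0.5, beside 6.52% of all rows, and none below 0. Only 3 passed the size rule. ADRM1, a ubiquitin receptor, had 87.5 FPKM at 2 µM and 40.4 FPKM in the control (log2 1.10, or 0.99 when centred by transcript length). PSMC1, an ATPase of the base, had 40.6 FPKM at 2 µM and 19.0 FPKM in the control (log2 1.06). PSMD14, the deubiquitinase of the lid, had 23.9 FPKM at 2 µM and 11.1 FPKM in the control (log2 1.04). The median was 0.66, and it was 0.66 at 4 µM too. Core subunits were close to the rule, PSMB4 being at 138 FPKM at 2 µM and 72.1 FPKM in the control (log2 0.93). VCP, the p97 unfoldase that feeds the proteasome, had 0.79, its cofactor NPLOC4 0.74 and the arsenite-inducible gene ZFAND2A 0.91, with 0 of 15 ubiquitin and p97 genes past the size rule.

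Of 29 lysosome genes 15 were higher by the finer rule and 2 by the size rule, beside 6.52% and 1.16% of all rows, and the median was 0.59. CTSL, the protease cathepsin L, had 14.6 FPKM at 2 µM and 5.79 FPKM in the control (log2 1.20). GLA, alpha-galactosidase, had 8.66 FPKM at 2 µM and 3.61 FPKM in the control (log2 1.07, or 0.96 when centred by transcript length). Subunits of the proton pump lay below the rule, led by ATP6V0E1 (0.89) and ATP6V1G1 (0.79). Of 30 autophagy genes SQSTM1 and GABARAPL1 (log2 1.19), a membrane tag of autophagosomes, passed, and MAP1LC3B, of the same family, had 32.8 FPKM at 2 µM and 16.1 FPKM in the control (log2 0.98). CD68, a lysosomal membrane protein often used as a macrophage marker, had 3.69 FPKM at 2 µM and 0.534 FPKM in the control (log2 1.61). It met the filter only through its values with ATO. Other leukocyte genes stood beside it at low levels, with CD14 at 0.844 FPKM at 2 µM and 0.230 FPKM in the control, and LYZ at 0.375 and 0.0830 FPKM. Their part in the value of CD68 was not tested.

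**Figure D4:**
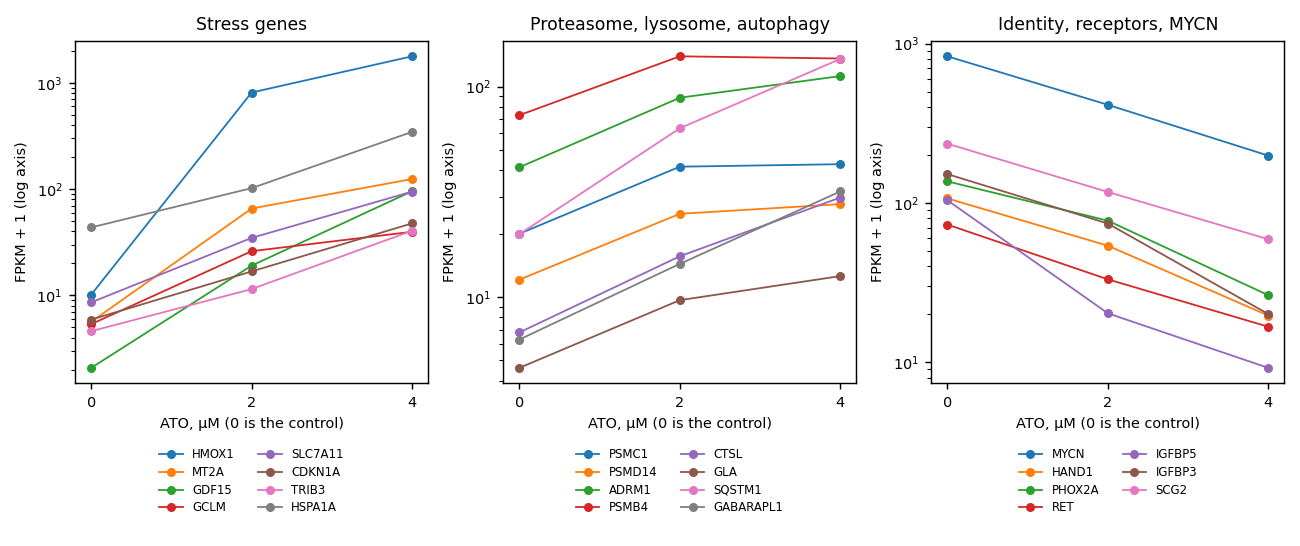
FPKM + 1 on a log axis against the ATO dose, with the control at 0, with 1 library per point, for stress genes (left), degradation genes (middle) and identity genes, receptors and MYCN (right). On this log axis HMOX1 covers most of its height by 2 µM, though it has 808 FPKM there and 1770 FPKM at 4 µM. The proteasome genes PSMC1 and PSMB4 are level between 2 and 4 µM. GDF15, TRIB3 and HSPA1A are also higher again at 4 µM, and MYCN, HAND1 and IGFBP3 lower again.

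Growth arrest and death genes differed in few members. CDKN1A, which encodes p21, a CDK inhibitor, had 15.8 FPKM at 2 µM and 4.93 FPKM in the control. It was the 1 of 27 p53 targets and CDK inhibitors past the rule, with GADD45A at 0.93 and MDM2, a core p53 target, at 0.02. TNFRSF12A, the receptor of TWEAK, had 27.8 FPKM at 2 µM and 6.46 FPKM in the control (log2 1.95), and was alone among 16 death receptor and caspase genes. In the BCL2 family BMF, a pro-apoptotic BH3-only gene, fell, with 11.5 FPKM at 2 µM and 32.5 FPKM in the control (log2 -1.42). PMAIP1, which encodes the BH3-only protein NOXA, had 0.86, BAX 0.70, MCL1 0.48 and BCL2 -0.49. Proliferation lists lay near the median of all rows, with 0 of 39 replication genes (median -0.06) and 0 of 34 genes of G2 and mitosis (median 0.00) past the rule. MCM7, a subunit of the replicative helicase, had 55.8 FPKM at 2 µM and 110 FPKM in the control, a log2 of -0.96 that passed the rule with TPM and upper-quartile scaling and with length centring. The 4 µM medians of these 2 lists were -0.57 and -0.47.

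MYCN transcripts were at 412 FPKM at 2 µM and 832 FPKM in the control, a log2 of -1.01 that only just passed. At 4 µM the level was 197 FPKM (log2 -2.07). The log2 of MYCN was still past the rule under the TPM, median-of-ratios and upper-quartile scalings. MYC, the paralog, had 2.15 FPKM at 2 µM and 1.28 FPKM in the control (log2 0.46), and MAX, their common partner, 8.73 FPKM at 2 µM and 7.84 FPKM in the control (log2 0.14). Ribosome biogenesis and nucleotide synthesis, which N-Myc is known to drive, had medians slightly below 0 at this dose. Ribosome biogenesis had 0 of 31 genes past even the finer rule, with a median of -0.10. Of its genes 22 of 31 were below 0, while 51.6% of all rows were above 0. Purine and pyrimidine synthesis had 0 of 17 genes past the size rule and a median log2 of -0.16. There 15 of 17 were below 0 and 2 were lower by the finer rule, beside 6.04% of all rows. CAD, which starts pyrimidine synthesis, was lowest at 16.5 FPKM at 2 µM and 28.9 FPKM in the control (log2 -0.77). PFAS had -0.63 and IMPDH2 -0.45. At 4 µM the medians of these lists were -0.61 and -0.76. Of 11 polyamine genes 2 rose, both catabolic, beside 1.16% of all rows. SAT1, which acetylates spermine and spermidine, had 49.5 FPKM at 2 µM and 15.1 FPKM in the control (log2 1.65), and SMOX, spermine oxidase, 7.34 FPKM at 2 µM and 2.42 FPKM in the control (log2 1.28). PAOX, the catabolic polyamine oxidase, had 1.47 FPKM at 2 µM and 0.757 FPKM in the control (log2 0.49), short of both rules. ODC1, the entry enzyme and a classic MYC target, had -0.05.

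Adrenergic transcription factors had a median of -0.42, with 16 of 18 below 0, while 51.6% of all rows were above 0. By the finer rule 7 were lower, beside 6.04% of all rows. HAND1 had 52.8 FPKM at 2 µM and 106 FPKM in the control, and PHOX2A 76.3 FPKM at 2 µM and 136 FPKM in the control. Their log2 values were -0.99 and -0.82, both short of the rule. KLF7, a zinc finger factor of the nervous system, had -0.98. With upper-quartile scaling HAND1 (-1.03) and KLF7 (-1.01) passed, and both passed with TPM scaling. HAND1 also passed when centred by transcript length (-1.06).

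Products of the same identity were split. SLC6A2, the noradrenaline transporter, had 3.44 FPKM at 2 µM and 8.04 FPKM in the control (log2 -1.02). SCG2, a granule protein, had 116 FPKM at 2 µM and 234 FPKM in the control (log2 -1.01). On the other side PTPRN, a membrane protein of dense-core granules, had 13.7 FPKM at 2 µM and 3.28 FPKM in the control (log2 1.78). VGF, a neuropeptide precursor, had 90.6 FPKM at 2 µM and 44.4 FPKM in the control (log2 1.01), below the rule with TPM (0.99), upper-quartile (0.97) and length-centred values (0.95). Among neuronal genes UCHL1, a deubiquitinase abundant in neurons, had 466 FPKM at 2 µM and 197 FPKM in the control (log2 1.24), and CNTN1, an adhesion molecule, 2.78 FPKM at 2 µM and 7.04 FPKM in the control (log2 -1.09).

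Several growth factor receptors and secreted modulators fell. IGFBP5, which binds insulin-like growth factors outside cells, had 19.2 FPKM at 2 µM, against 103 FPKM in the control (log2 -2.36), the largest decrease among genes with a symbol. IGFBP3, of the same family, had 73.1 FPKM at 2 µM and 151 FPKM in the control (log2 -1.03). RET, a receptor tyrosine kinase of GDNF ligands, had 32.1 FPKM at 2 µM and 72.1 FPKM in the control (log2 -1.14). Its co-receptor family member GFRA2 had -1.10, and all 9 considered receptor genes of that list were below 0 (median -0.52, or -0.42 when centred by transcript length). Of all rows 51.6% were above 0. LGR5, a receptor of R-spondins, had 12.2 FPKM at 2 µM and 33.7 FPKM in the control (log2 -1.39), and DKK2, a Wnt antagonist, -1.01. CCKAR, a cholecystokinin receptor, had 0.893 FPKM at 2 µM and 6.81 FPKM in the control (log2 -2.04). It met the filter only through its control value. TGFB3 (-1.52), a ligand of the TGF-beta family, the matrix protease MMP11 (-1.39) and the synaptic vesicle protein SYT4 (-1.62) also fell.

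The remaining large decreases covered several functions. BLK, a Src family kinase, had 0.869 FPKM at 2 µM and 5.57 FPKM in the control (log2 -1.81). It met the filter only through its control value. TENM4, a large teneurin of neuronal adhesion, had -1.56, ARHGEF28, a guanine nucleotide exchange factor, -1.61, EML5, a microtubule-associated protein, -1.59, and PTPRR, a phosphatase of MAP kinases, -1.43. DOK4, an adaptor of receptor tyrosine kinases, was abundant at 46.3 FPKM at 2 µM and 124 FPKM in the control (log2 -1.40), as was LINGO4, a leucine-rich repeat membrane protein, at 34.1 FPKM at 2 µM and 91.6 FPKM in the control (log2 -1.40). C11orf96 (-1.69), MIR503HG (-1.78), METTL7A (-1.48), TRIL (-1.47), CRYBG3 (-1.42) and SLC4A8 (-1.40) complete the genes for which 4 µM lay below 2 µM as well.

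Another 4 of the 25 largest decreases had higher values at 4 µM than at 2 µM. MGAT3, a glycosyltransferase that adds bisecting N-acetylglucosamine, had 2.72 FPKM in the control, 0.0740 FPKM at 2 µM and 1.02 FPKM at 4 µM. C19orf71 had 2.48 FPKM in the control, was listed at 0 at 2 µM and had 1.94 FPKM at 4 µM. BOLA2, a gene with near-identical copies, had 2.57, 0.124 and 3.69 FPKM in order of dose, and AGAP2-AS1, an antisense RNA that cannot be separated from its partner without strand, 6.76, 1.43 and 8.47 FPKM. In general a row stood apart at 2 µM from both other libraries, by the size rule on each side, in 8 cases upward and 10 downward. None of the 8 was a gene with a symbol outside read-through and small RNA rows, and 4 of the 10 were (C19orf71, BOLA2, AGAP2-AS1 and FAM220A). C19orf71, BOLA2 and FAM220A, like MGAT3, were under 1 FPKM at 2 µM and met the filter only through the other libraries.

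Further increases reached the immediate early and cytoskeletal genes. FOSL1, an AP-1 subunit linked to the mesenchymal state, had 26.9 FPKM at 2 µM and 6.69 FPKM in the control (log2 1.86). GADD45G (log2 1.26) was the other of 20 AP-1 and immediate early genes past the rule, and CCN2 (log2 1.08), a matricellular target of YAP, the other of 17 mesenchymal genes. GADD45G, at 0.487 FPKM in the control, met the filter only through its values with ATO. FLNC, a filamin that crosslinks actin, had 18.6 FPKM at 2 µM and 8.54 FPKM in the control (log2 1.04, just short of 1 with upper-quartile scaling). ZYX, zyxin of focal adhesions, had 138 FPKM at 2 µM and 68.4 FPKM in the control (log2 1.00), and NDRG1, a hypoxia and stress gene, 5.47 FPKM at 2 µM and 2.23 FPKM in the control (log2 1.00). Both of the last stood on the rule and missed it with median-of-ratios and upper-quartile scaling and with length centring. Outside the lists, SEL1L3 (log2 1.81), the tripartite motif gene TRIM16L (log2 1.79), the chloride channel gene BEST1 (log2 1.77), the sorting nexin gene SNX22 (log2 1.74), the pannexin gene PANX2 (log2 1.57), the serine protease gene HTRA3 (log2 1.56) and MALL (log2 1.52) were among the 25 largest. SNX22 and HTRA3, at 0.118 and 0.0574 FPKM in the control, met the filter only through their values with ATO.

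Many housekeeping systems did not differ by the size rule. Members past it numbered 0 of 38 for nuclear oxidative phosphorylation genes (median 0.15), 0 of 13 for the mitochondrial genome (-0.01), 0 of 55 for cytosolic ribosomal proteins (0.09), 0 of 29 for translation factors (0.05) and 0 of 24 for splicing factors (-0.07). The same count was 0 of 27 for cholesterol and fatty acid synthesis (-0.05), 0 of 24 for glycolysis (0.26), 0 of 22 for DNA repair (-0.16), 0 of 14 for interferon and MHC class I genes (0.28) and 0 of 12 for tubulins (0.25). In matrix genes 1 of 15 passed, MMP11, with LUM at -0.87 and COL3A1 at -0.67 (median -0.31). Mitochondrial ribosomal proteins also had 0 members of 32 past the rule and a median of 0.13. At 4 µM, where the median of all rows was -0.13, oxidative phosphorylation had -0.34, cytosolic ribosomal proteins -0.16 and mitochondrial ones -0.37. These 3 are lists of short transcripts, with a median longest transcript of 2.02, 1.87 and 1.70 kb against 3.70 kb over all genes, and their 2 µM medians centred by length are 0.09, 0.02 and 0.04.

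**Figure D5:**
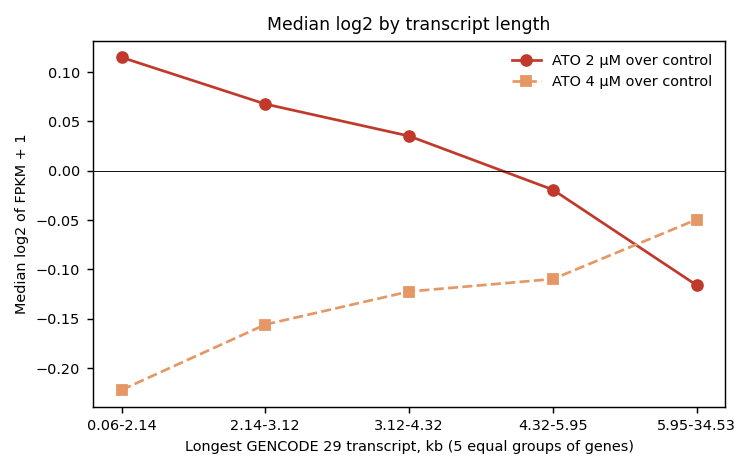
Median log2 of FPKM + 1 over control for genes in 5 equal groups of longest transcript length, for ATO 2 µM (circles) and ATO 4 µM (squares). The 2 µM medians descend from 0.11 in the shortest group to -0.12 in the longest, and the 4 µM medians ascend from -0.22 to -0.05.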

How the data were processed

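Total RNA, 1.3 µg per sample, went into paired-end TruSeq libraries per the labels' protocols, with 1 library per group. The values are FPKM for each gene, as deposited by the authors in 1 table per the file headers. Neither the aligner and counting tool nor the use of strand is given in the sources read for these results. GRCm38 and mm10, both mouse builds, are named in the submitters' processing notes although the rows carry human names, so only the RefSeq promoters have coordinates.

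Counts were not in the table, so the planned description of FPKM was used, as designed, with a pseudocount of 1, a minimum mean of 1 FPKM and a size rule of 1 on the log2 scale. Reads were not recovered from the spacing of low values, and the depth is known only in relation to the control. Names were matched to GENCODE 29 and RefSeq tables, transcript lengths for 11096 of 11106 genes. The genes named were HMOX1, MT2A, MT1G, GDF15, MYCN, MYC, MAX and CDKN1A, the 25 largest differences each way among genes with a symbol, up to 6 rows each way that stood apart at 2 µM, and in each of 59 lists the members past the rule or the 4 with the largest absolute log2. Members of lists outside this rule (among them NFE2L2, MDM2, ODC1 and GSTP1) were chosen after their values were seen. Members and lists were chosen with earlier results of these data known. Some genes that the rule covers are not described. Centring by transcript length or GC content was added after seeing the data. The procedure was checked on simulated data with Python 3.11.15, numpy 2.4.6, pandas 2.3.3 and matplotlib 3.10.9.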

Additional observations from a re-analysis of the deposited data

How the results depend on the processing

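No paired analysis was possible because each group had 1 library and the replicate numbers only name samples. For the same reason no replicate could be left out. Counts of rows moved with the scale. Against 144 higher, 112 lower and 256 in all, there were 259, 247 and 506 with a pseudocount of 0.1 (51.2% higher), 44, 17 and 61 with a pseudocount of 5 (72.1%), 367, 552 and 919 after TPM scaling, which considers 17056 rows (39.9%), and 73, 30 and 103 with a minimum mean of 10 FPKM (70.9%), where 56.2% were higher as first computed. Rows with a symbol numbered 106 higher and 74 lower, the rule of 0.5 gave 811, 751 and 1562, and the rule of 2 gave 20, 3 and 23. Median-of-ratios scaling gave 136 and 109, upper-quartile scaling 128 and 130 (49.6% higher), no filter 158 and 131, length centring 134 and 124, and GC centring 136 and 118. Of the 108 named genes past the rule 106 were still past it with TPM, 106 with median-of-ratios, 103 with upper-quartile scaling, 102 with length centring, 107 with GC centring and 46 with a pseudocount of 5. No named gene reversed in these settings. List medians that changed sign were Schwann and glial markers (-0.61 with TPM, -0.0243 with no filter), epithelial markers (0.0572 with median-of-ratios, 0.0366 with no filter), arsenic transport (-0.0297) and the MYCN, MYC and MAX network (0.0960), both with a minimum mean of 10 FPKM, and, with length centring, PML bodies (-0.00374) and hypoxia targets (-0.0148). The G2 and mitosis median of 0.00 lay between -0.0390 and -5.14e-05 with TPM, median-of-ratios and upper-quartile scaling, a minimum mean of 10 FPKM, and length and GC centring. The metallothionein median of 2.05 was 0.62 with no filter, 0.83 with a pseudocount of 5, 3.53 with a pseudocount of 0.1 and 3.54 with a minimum mean of 10 FPKM. The cause of these changes was not tested. A single library per group limits every value.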

Other observations

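Some small structural RNAs that lack a poly(A) tail, chosen by name, were highest in the 2 µM library. Of 103 considered small RNA rows 6 were higher by the size rule and 0 lower, beside 1.16% and 0.901% of all rows. RMRP and RPPH1, given below, lay under the filter. RN7SL1 and RN7SL2, copies of the RNA of the signal recognition particle, had 7.49 and 6.004 FPKM at 2 µM, against 3.18 and 0.697 FPKM in the control. RN7SK, which holds the elongation factor P-TEFb inactive, had 4.84 FPKM at 2 µM and 1.60 FPKM in the control. RMRP, the RNA of the RNase MRP, had 1.84 FPKM at 2 µM and 0.161 FPKM in the control, and RPPH1, the RNA of RNase P, 0.309 FPKM at 2 µM and 0.0445 FPKM in the control. At 4 µM these 5 RNAs had between 0 and 1.60 FPKM. In the control and at 4 µM the read-through row PEDS1-UBE2V1 was listed at 0, and at 2 µM it had 10.1 FPKM.

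Genes past the rule also differed in size. The 106 higher genes had a median gene span of 14.2 kb in RefSeq and the 74 lower ones 37.7 kb, against 30.1 kb over all considered genes with a symbol. A span of 100 kb or more was found in 8.49% of the higher, 29.7% of the lower and 17.9% of all these genes. The median log2 at 2 µM was 0.09 for genes under 5 kb and -0.14 for genes of 200 kb or more. Whether span or transcript length goes with the values was not tested.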
